A study of Rattus norvegicus with 6 samples.

Results

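The subject was the vehicle-treated kidney inner medulla of the rat: 2 of the 6 Affymetrix whole-transcript gene arrays of the study, taken as they stood at baseline, with no group set against another. Both vehicle arrays held total RNA from inner medulla of male Sprague-Dawley rats of 200 to 250 g that had received saline under the skin at 1 µl/h for 5 d from an osmotic minipump in the neck. The rats were kept in metabolic cages on a fixed ration of standard diet with free access to water. The other 4 arrays came from rats given dDAVP (desmopressin, an agonist of the vasopressin V2 receptor) at 40 ng/h for 5 d, 2 of them taken 3 h after removal of the pump under light enflurane anaesthesia. They served only to choose the probe set that stands for a gene. The labels do not say whether the 2 vehicle arrays hold separate animals, so the spread between them may be technical, and their number limits the precision of every value.

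The inner medulla forms the tip of the kidney's pyramid, in which collecting ducts run down to the papilla beside thin limbs of Henle and the long capillaries called vasa recta. Its interstitium is rich in salt and urea, which draws water out of the collecting duct through aquaporin water channels when vasopressin acts on its receptor. Little oxygen reaches it, and the tissue is known for making lactate from glucose and for storing organic osmolytes that protect its cells.

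Each of 14168 genes was given 1 level, the mean of the log2 intensity in the 2 vehicle arrays, and a percentile, which is the percent of all genes with a lower level. Levels ran from 5.25 to 13.19 with a median of 7.99. A probe set's brightness depends on its probes as well as on the transcript and is not measured per length, so these levels order probe sets, not transcript abundances. The size of this limit could be seen in genes with several probe sets. In 151 of 509 such genes (29.7%) the probe sets lay more than 1 log2 apart in the same 2 arrays, and for Gnas they lay at 7.25 and 11.67. The 42 cytosolic ribosomal protein genes of a list used here, whose products are made in equal numbers, spanned 10.06 to 12.97.

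To mark the dim range of the arrays, 1081 olfactory receptor genes were used, a family known for the nose. Their median level was 6.23, and 95% of them lay below 7.19 in replicate 1 and below 7.04 in replicate 2. Of all genes, 9407 (66.4%) were brighter than this limit in both vehicle arrays, 530 in 1 array only and 4231 in neither. A gene called not above the limit in the text was at or below it in at least 1 array. No vomeronasal receptor gene of 134 passed. By construction 10% of genes have a percentile of 90 or more, and they are called the brightest 10% below (9.99% of genes as counted). Every count of list members in the text is to be read against 66.4% above the limit and 9.99% in the brightest 10%. A place above the limit does not establish expression. Of 71 measured genes known from tissues other than kidney, 17 (23.9%) were above it, with 5 of 12 for skeletal muscle.

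Vehicle replicate 1 stood apart from replicate 2 in a set of genes. Across all genes the arrays had a Pearson correlation of 0.99 and a median absolute difference of 0.15 log2, but 116 genes (0.819%) differed by more than 1 log2, 22 of them higher in replicate 1 and 94 higher in replicate 2. Mest, an imprinted gene, had a log2 intensity of 5.47 in replicate 1 and 9.97 in replicate 2. The medians of the cell cycle, intercalated cell and endothelial lists below are therefore given for each array as well.

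The brightest gene of the tissue was Aqp2, the vasopressin-regulated water channel of collecting duct principal cells, with a log2 intensity of 13.16 in replicate 1 and 13.23 in replicate 2 (13.19 ± 0.05, SD, n = 2). It ranked 1 of 14168 by the mean, 1 in replicate 1 and 2 in replicate 2, behind S100a10 (13.04 and 13.28), a small partner of annexin A2. The next ranks were held by Mt2A, a metal-binding metallothionein (13.04 and 13.19), Ldha, the lactate dehydrogenase subunit that favours lactate formation (13.04 and 13.16), the cytoplasmic actin Actg1 (13.04 and 13.15) and Akr1b1, the aldose reductase that makes the osmolyte sorbitol (12.92 and 13.07). The differences among these 6 genes were of the size of their differences between the arrays, so their order is not fixed by these data. Tissue-specific genes thus stood among household genes at the very top.

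After these came Rps20 (12.97), Eef1a1 (12.91), Oaz1 (12.90), Rps3 (12.90), Fxyd4 (12.89), Laptm4a (12.84), Rps4x (12.83), Rps28 (12.83), Rps23 (12.78), Rpl38 (12.77), Itm2b (12.76), Cd63 (12.74), Rps12 (12.73), Cd9 (12.73), Gapdh (12.72), Atp5mc3 (12.72), Mif (12.72), Rpsa (12.70) and Rps6 (12.70). Fxyd4 is the subunit of the sodium pump known as CHIF, found in the collecting duct. Genes whose symbols begin like those of ribosomal proteins (Rpl or Rps) made up 9 of the brightest 25 and 32 of the brightest 100, out of 80 such symbols. This count by the start of the symbol can also take in other genes, such as ribosomal S6 kinases (Rps6k). Many ribosomal protein genes have processed pseudogenes or close copies, as have Actg1, Gapdh, Eef1a1 and the metallothioneins, and their probe sets may read several of them. A gene stands at its highest probe set, which can lift genes with several, such as Gapdh (16), Rps20 (8) and Actg1 (6). Further probe sets of Rps3 and Oaz1 lay at 10.86 and 11.42, so the places of these genes depend on the probe set chosen. The brightest 25 of each array shared 20 genes, and the brightest 100 shared 88.

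The promoters of 3 of the brightest genes are shown because they differ in base composition and in motifs, with that of a bitter taste receptor from the dim end of the order for contrast. Each is given 5′ to 3′ as the 250 bases before the annotated start in RefSeq's GRCr8 assembly, and capitals mark the GC box GGGCGG, the CCAAT box and the cAMP response element TGACGTCA on either strand, as well as TATAAA between 40 and 16 bases before the start on the gene's strand. The Aqp2 stretch is chr7:132590036-132590285 on the plus strand, Mt2A is chr19:10838709-10838958 on the minus strand, Ldha is chr1:106507842-106508091 on the plus strand and Tas2r13 is chr4:167810065-167810314 on the plus strand.
Aqp2: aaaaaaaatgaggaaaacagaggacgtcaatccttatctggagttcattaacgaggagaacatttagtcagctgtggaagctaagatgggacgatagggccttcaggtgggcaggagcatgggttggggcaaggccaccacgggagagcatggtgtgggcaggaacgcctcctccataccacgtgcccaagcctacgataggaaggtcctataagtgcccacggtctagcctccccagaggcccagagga
Mt2A: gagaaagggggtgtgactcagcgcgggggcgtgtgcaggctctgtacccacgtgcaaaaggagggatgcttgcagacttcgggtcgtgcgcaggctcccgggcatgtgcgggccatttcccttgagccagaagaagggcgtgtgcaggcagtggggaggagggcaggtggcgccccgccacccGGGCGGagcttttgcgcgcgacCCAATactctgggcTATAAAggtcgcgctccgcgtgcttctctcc
Ldha: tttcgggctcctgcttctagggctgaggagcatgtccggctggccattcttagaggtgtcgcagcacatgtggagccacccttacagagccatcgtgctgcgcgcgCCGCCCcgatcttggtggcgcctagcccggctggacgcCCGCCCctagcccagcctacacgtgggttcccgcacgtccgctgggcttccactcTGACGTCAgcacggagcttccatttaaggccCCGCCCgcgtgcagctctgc
Tas2r13: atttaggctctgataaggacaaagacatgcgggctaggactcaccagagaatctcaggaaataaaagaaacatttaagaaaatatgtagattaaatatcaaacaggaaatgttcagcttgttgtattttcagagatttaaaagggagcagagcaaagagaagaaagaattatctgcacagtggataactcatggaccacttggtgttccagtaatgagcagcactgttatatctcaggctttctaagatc
None of these motifs was found as an exact match in the Aqp2 stretch, and near matches were not searched for in any of the promoters. In Mt2A the TATAAA began 31 bases before the start, next to a CCAAT, and in Ldha a TGACGTCA, the full-length form of that element, stood beside several copies of the GC box. How these features run over all genes is given further below.

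Collecting duct principal cells, the target of vasopressin, were represented by 15 measured markers, of which 7 lay in the brightest 10% and 14 above the limit. Their median level was 9.88, at percentile 80.5 (79.5 in replicate 1 and 87.1 in replicate 2), and members ran from 7.17 to 13.19. Below Aqp2 and Fxyd4 came Slc14a2, the urea transporter UT-A of the terminal collecting duct, at 11.79 and 12.55 (12.17 ± 0.53, SD, n = 2), rank 146 of 14168. Aqp4, the water channel of the basolateral membrane, stood at 11.30 and 11.90 (11.60 ± 0.43, percentile 96.7). Avpr2, the V2 receptor itself, stood at 11.59 and 11.32 (11.45 ± 0.19, percentile 95.9). Slc14a2 and Aqp4 were brighter in replicate 2 and Avpr2 in replicate 1, so the arrays did not order these genes alike.

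Further down the same list were Hsd11b2 (10.95), the enzyme that shields the mineralocorticoid receptor from corticosterone, and the transcription factors Gata3 (10.74), Tfap2b (9.88) and Elf5 (8.44). Kcnj1, the secretory potassium channel ROMK, differed between the arrays (9.11 and 10.44). The mineralocorticoid receptor Nr3c2 lay at 9.21. The 3 subunits of the epithelial sodium channel spread widely, with Scnn1g at 9.41, Scnn1b at 8.43 and Scnn1a at 7.17, the lowest of the list and not above the limit in replicate 1. Since probe sets of different genes cannot be set against each other, this spread does not order the subunits' transcripts. In bulk tissue fewer cells of a type and less RNA per cell cannot be told apart, here and in the lists that follow.

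Intercalated cells, which secrete acid or base, were represented by 15 measured markers with a median at percentile 57.7, and 13 of them were above the limit. The list is uneven between the arrays, with a median at percentile 49.3 in replicate 1 and 65.6 in replicate 2. Its brightest member was Car2, carbonic anhydrase 2, at 11.69 and 11.60, an enzyme that other tubule cells also make. The ammonia transporters Rhbg (10.74 and 10.72) and Rhcg (9.77 and 10.09) and the proton pump subunits Atp6v1g3 (9.70 and 10.25) and Atp6v0a4 (9.41 and 10.06) followed. Slc4a1, the anion exchanger AE1 of acid-secreting cells, stood at 8.43 and 10.24, and Atp6v0d2 at 8.69 and 10.12. Markers of base-secreting cells were dim: Slc26a4, the exchanger pendrin, at 6.67 and 6.68 and Insrr, an alkali-sensing receptor and the lowest member, at 6.58 and 6.42, neither above the limit. Slc4a9, an anion exchanger of the same cells, was above it in both arrays at 7.27 and 8.47.

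Among segment lists, that of the thin limb of Henle had the highest median percentile, 88.3 (87.0 and 89.4 in the 2 arrays), with 8 of 9 measured members above the limit and 4 in the brightest 10%. Cldn10, a claudin of cation-selective or anion-selective tight junctions depending on the isoform, stood at 11.96 in both arrays, Cldn4 at 11.57 and 12.19 and Slc4a11, a transporter of the bicarbonate family, at 10.98 and 11.38. Cldn3 (10.52) and Cldn4 are also claudins of the collecting duct, so the list is not exclusive to the thin limb. Cldn3 is itself the median member of the list. Among the members other than these 2 claudins the middle one is Bst1, at percentile 82.8 (84.4 in replicate 1 and 80.7 in replicate 2). In replicate 2 this is below the 87.1 of the principal cell list, so the thin limb's first place there rests on the shared claudins. Sptssb, a subunit of the enzyme that begins sphingolipid synthesis, lay at 11.14, Bst1 at 10.04, the activin antagonist Fst at 9.10 and the ephrin receptor Epha7 at 8.81. The lowest was Corin, a protease that activates natriuretic peptides, at 6.97 and not above the limit. Aqp1, the best known water channel of the descending thin limb, was not analysed here.

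The thick ascending limb begins at the border with the outer medulla, and its 11 measured markers had a median at percentile 69.1, with 8 above the limit and 1 in the brightest 10%. This member was Bsnd (10.97 ± 0.04, SD, n = 2), barttin, an accessory subunit of ion channels in the basolateral membrane. Umod, uromodulin, the hallmark protein of this segment, stood at 9.98 and 10.03 (SD 0.04, n = 2, percentile 82.4), and Cldn19 at 10.60 and 10.38. Slc12a1, the cotransporter NKCC2 that furosemide blocks, was at 9.46 in replicate 1 and 10.61 in replicate 2. Not all of the list was bright: Casr (7.04), Nos1 (6.58) and Cldn14 (6.28, the lowest) were not above the limit. How much tissue of the outer medulla the samples held was not tested.

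Segments of the cortex were dim. The proximal tubule list had 24 measured members with a median level of 7.15 at percentile 32.5, and 11 of them were above the limit, a share of 45.8% against 66.4% of all genes. None lay in the brightest 10%. Its brightest was Slc7a13, an amino acid transporter of the late proximal tubule, at 10.69 and 10.15, followed by Slc3a1 (8.74), a subunit of the cystine transporter, and Ggt1 (8.70). The receptor Lrp2, megalin, stood at 7.53, the phosphate transporter Slc34a1 at 7.31, the glucose transporter Slc5a2 at 7.56 and Pck1 at 6.89. The lowest was the lactate transporter Slc5a12 at 6.47.

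The distal convoluted tubule had 5 measured markers with a median at percentile 17.6, 2 of them above the limit. Wnk4, a kinase that regulates cotransporters, stood at 9.41 and the exchanger Slc8a1 at 7.49, while Slc12a3, the thiazide-sensitive cotransporter that defines the segment, stood at 6.61, Pvalb at 6.31 and Calb1, the lowest, at 6.19. The podocyte list had 9 measured members with a median at percentile 40.6, and 6 were above the limit. Its 2 bright members were Tcf21 (11.87 and 11.64) and Cdkn1c (11.10 and 11.02), a transcription factor and a cell cycle inhibitor that stromal cells make as well. Podxl came next at 7.77, while Nphs1, nephrin, which defines the podocyte's slit diaphragm, stood at 6.91 and Wt1, the lowest, at 6.80.

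**Figure D1:**
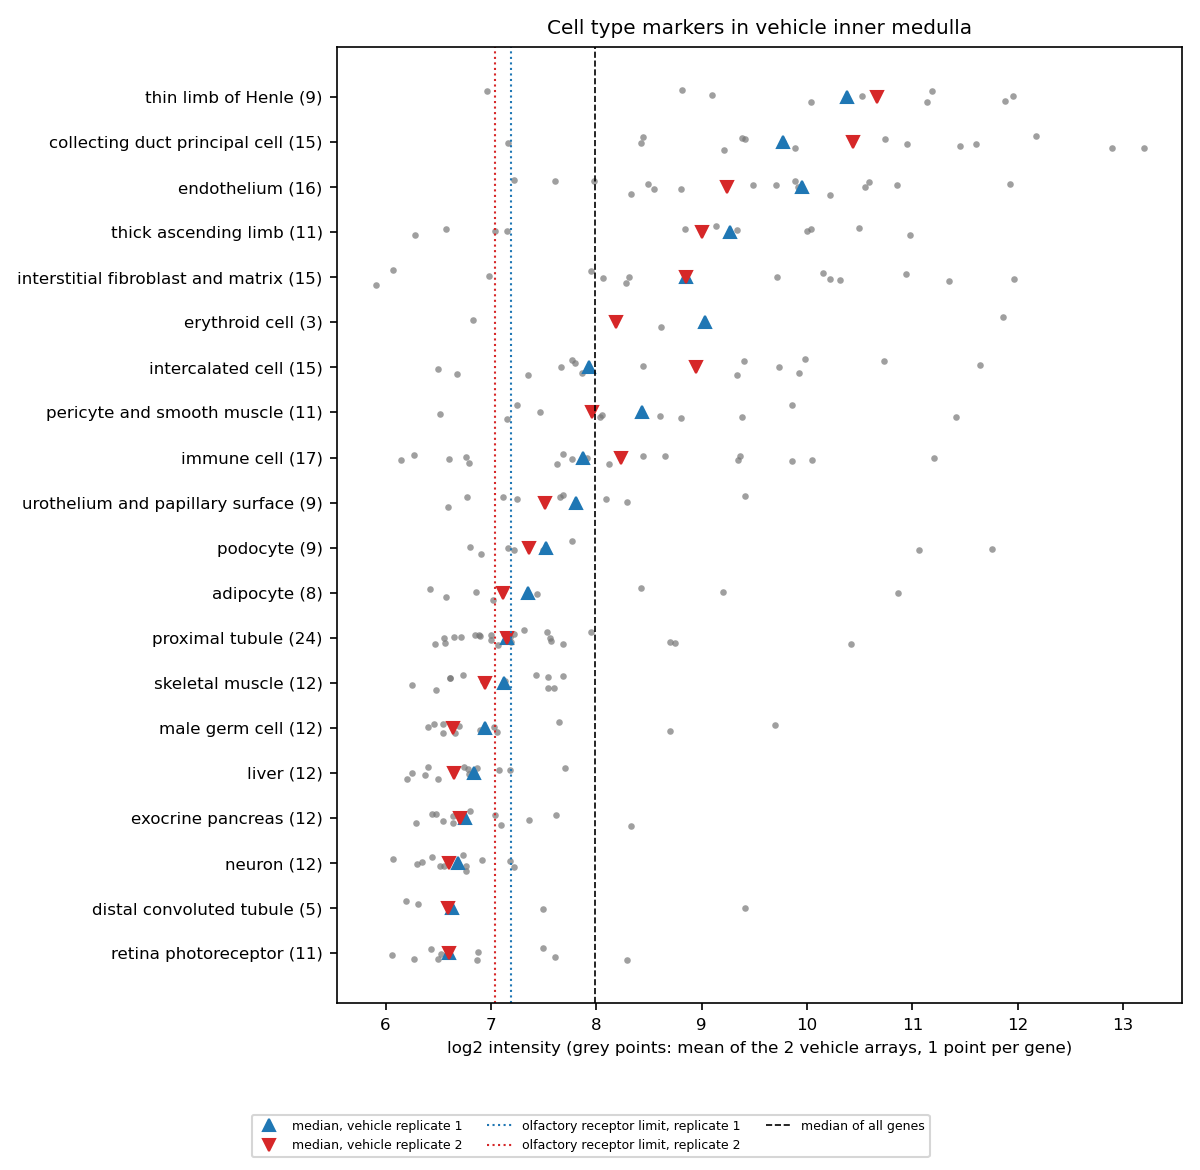
Log2 intensity (horizontal axis) of the measured markers of each cell type (rows, with the number of genes), as grey points for the mean of the 2 vehicle arrays, with triangles for the list's median in each array. Dotted lines mark the olfactory receptor limits of 7.19 and 7.04 and the dashed line the median of all genes, 7.99. Thin limb has the highest median in each array, followed by endothelium in replicate 1 (9.95) and principal cell in replicate 2 (10.44). The thin limb median is the level of Cldn3, also a claudin of the collecting duct. Left of the dashed line in both arrays lie the medians of proximal tubule, distal convoluted tubule, podocyte, urothelium, adipocyte and the 6 tissues other than kidney.

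The list of urothelium and papillary surface had 9 measured markers with a median at percentile 43.8, of which 6 were above the limit. Krt7 stood at 9.41, Krt15 at 8.29 and Upk3a, a uroplakin of the surface plaques, at 8.40 and 7.79. Upk1a (7.69) and Upk1b (7.66) lay closer to the limit, Upk2 (7.12) and Krt20 (6.78) were not above it, and Tp63 was the lowest at 6.59.

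The vessels of the inner medulla were well represented: all 16 measured endothelial genes were above the limit, 2 of them in the brightest 10%. The median lay at percentile 76.4, with 82.0 in replicate 1 and 70.3 in replicate 2. Plvap, the protein of fenestral diaphragms, was the brightest at 11.82 and 12.04 (11.93 ± 0.15, SD, n = 2). The angiopoietin receptor Tek stood at 11.04 and 10.65, the junction protein Esam at 10.72 and 10.46 and the endothelial claudin Cldn5 at 10.55 ± 0.64 (SD, n = 2), with replicate 1 higher by 0.91. Pecam1 was at 10.26 and 10.18 (10.22 ± 0.06, percentile 85.1). Slc14a1, the urea transporter UT-B of the descending vasa recta and red cells, stood at 10.02 and 9.40. The lowest was Cdh5, the cadherin of endothelial junctions, at 7.28 and 7.16, so defining genes of this cell type were spread from percentile 34.3 to 98.2.

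Pericyte and smooth muscle genes had a median at percentile 51.1 (57.9 and 49.3 in the 2 arrays), and 9 of 11 measured members were above the limit. Acta2, smooth muscle actin, was the brightest at 11.38 and 11.44, followed by Tagln (9.50 and 10.22) and the potassium channel subunit Kcnj8 (9.49 and 9.28). Rgs5, a pericyte regulator of G protein signalling, stood at 9.17 and 8.44. Cspg4 (7.15) and Cnn1 (6.51, the lowest) were not above the limit.

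Interstitial fibroblast and matrix genes had a median at percentile 64.5, with 12 of 15 measured members above the limit and 3 in the brightest 10%. Decorin, Dcn, stood at 12.20 and 11.72 (11.96 ± 0.34, SD, n = 2), biglycan, Bgn, at 11.54 and 11.15 and vimentin, Vim, at 11.03 and 10.84. The collagen genes ranked further down, with Col1a2 at 10.15, Col3a1 at 8.85 and Col1a1 at 8.31. Pdgfra, a growth factor receptor of fibroblasts, was at 10.03 and 9.40. Postn (6.98) and Fap (6.07), genes known from activated fibroblasts, and Lum (5.91, the lowest) were not above the limit.

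The related list of hyaluronan and proteoglycan genes, part of the gel-like interstitium, had its median at percentile 58.5 (54.3 in replicate 1 and 62.4 in replicate 2). Of its 15 measured members 12 were above the limit. It shares Dcn, Bgn and Lum, its lowest member, with the fibroblast list. Besides these, Sdc4 stood at 10.89, versican, Vcan, at 10.42 and the hyaluronidase Hyal2 at 10.28. Of the 3 hyaluronan synthases Has2 (8.30) was above the limit and Has3 (6.80) and Has1 (6.61) were not. Cd44, the hyaluronan receptor, was at 8.21 and 8.76.

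Immune cell markers had a median at percentile 48.6, with 12 of 17 measured members above the limit. The brightest were the myeloid genes Lyz2 at 10.92 and 11.50, C1qa at 9.72 and 10.38 and Cd68 at 9.33 and 10.39, but the macrophage receptor Cd163 (6.79), the neutrophil enzyme Mpo (6.77) and the myeloid integrin Itgam (6.60) were not above the limit. Cd74, the chain that accompanies class II molecules, went the other way (9.99 and 8.74). The T cell genes Cd3e (7.77), Cd4 (7.69) and Cd8a (7.63) were above it by a small margin. Of the B cell genes Cd79b (8.12) was above the limit and Ms4a1 (6.27) was not, and the mast cell protease Mcpt1 (6.15) was the lowest. The 3 erythroid genes had a median at percentile 60.5 (67.9 in replicate 1 and 53.2 in replicate 2). Of these Hbb-b1 stood at 12.06 and 11.67, Alas2 at 9.03 and 8.19 and Epb42, the lowest, at 6.83, not above the limit.

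Adipocyte genes had a median at percentile 34.2, with 4 of 8 above the limit. Fabp4, which capillary endothelium also makes, stood at 10.87, Lpl at 8.73 and 9.68 and Pparg at 7.87 and 8.98, while Adipoq (6.86), Lep (6.57) and Cidec (6.43, the lowest) were not above the limit.

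The 6 lists of tissues other than kidney show what the method returns for genes the inner medulla is not known for. Of their 71 measured members 17 (23.9%) were above the limit, and their median lay at percentile 21.4. Skeletal muscle had its median at percentile 29.2 with 5 of 12 above the limit, from Ckm (7.68), Tnnc2 (7.60) and Mb (7.54) down to Myh1 (6.25). Liver had 1 of 12, Apoc3 (7.70), above Cps1 (7.18), Ahsg (7.07) and the lowest, Cyp2c11 (6.21), with a median percentile of 22.0. Neuron had 2 of 12, Syp (7.22) and Slc17a7 (7.18), then Rbfox3 (6.92) down to Slc17a6 (6.07), with a median percentile of 18.7.

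Retina photoreceptor genes had a median percentile of 17.0 and 3 of 11 above the limit, Rom1 (8.29), Prph2 (7.61) and Nrl (7.50), with Cnga1 lowest at 6.06. For exocrine pancreas these figures were 20.7 and 3 of 12, Cela1 (8.33), Ctrb1 (7.61) and Ctrc (7.36), with Spink1 lowest at 6.28. Male germ cell genes had a median percentile of 22.7 with 3 of 12 above the limit, and Prm1 reached 9.69, Tssk2 8.70 and Prm2 7.64, with Spata18 lowest at 6.40. A level such as that of Prm1, a protein of sperm chromatin, is a reminder that a single bright probe set does not establish expression of a gene.

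Turning from cell types to functions, the water channels and vasopressin receptors split into bright and dim members. Of 12 measured genes 8 were above the limit and 3, Aqp2, Aqp4 and Avpr2, in the brightest 10%. The list's median lay at percentile 44.9 (37.8 in replicate 1 and 49.1 in replicate 2). Avpr1a, the V1a receptor of vessels and intercalated cells, was at 10.03 and 10.12. Aqp8 (7.79), Aqp5 (7.77), Aqp6 (7.67) and Aqp11 (7.55) were above the limit by a small margin, and Mip (7.02), Avpr1b (6.94), Aqp9 (6.84) and Aqp7 (6.82, the lowest) were not. Aqp3 was not analysed here.

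All 11 measured genes of urea and osmolyte handling were above the limit, 5 of them in the brightest 10%, with a median at percentile 82.2. Below Akr1b1 and Slc14a2 came Slc5a3, which takes up the osmolyte inositol, at 11.71 and 12.24, Slc38a2, which takes up neutral amino acids, at 11.17 and 11.33 and Arg2, the arginase that yields urea, at 10.76 and 10.82. Nfat5, the transcription factor known to switch on osmolyte genes, stood at 9.82 and 9.60, and its known target Hspa4l at 9.82 and 10.17. The taurine transporter Slc6a6 (8.23) and Gdpd5 (7.55, the lowest), which breaks down the osmolyte glycerophosphocholine, were dimmer. Akr1b1 has a further probe set at 11.62, so its place depends on the probe set chosen.

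The sodium pump and its regulators were bright, with 12 of 13 measured members above the limit, 5 in the brightest 10% and a median at percentile 74.4. After Fxyd4 came the pump's beta subunits Atp1b1 (12.08 and 12.18) and Atp1b3 (11.60 and 11.78), the gamma subunit Fxyd2 (12.07 and 12.16) and the aldosterone-induced kinase Sgk1 (11.37 and 11.82). Scnn1a, described above, was the lowest. Chloride and cation cotransport had a median at percentile 60.2, with 8 of 12 above the limit. Below Bsnd the sodium-proton exchanger Slc9a4 (10.04) and Slc12a1 were the brightest, and the secretory cotransporter NKCC1, Slc12a2, stood at 9.66. Slc12a3, Slc26a4, Slc9a2 (6.81) and Cftr (6.19, the lowest) were not above the limit.

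All 21 measured epithelial junction genes were above the limit, with 7 in the brightest 10% and a median at percentile 87.7. Epcam led at 12.47 and 12.54, then Cdh16, the kidney-specific cadherin, at 11.77 and 12.16, Cldn10, Cldn8 (11.83 and 12.08) and Cldn4. The lowest was Cldn2, the claudin of the leaky proximal tubule, at 7.41. Of 16 keratin and filament genes 12 were above the limit, with a median at percentile 48.0. Krt18 at 11.68, Krt8 at 11.07 and Krt19 at 10.23, known from simple epithelia, were the brightest keratins, and Vim lay among them. Of the keratins known from stratified epithelia, Krt15 (8.29), Krt10 (7.71) and Krt13 (7.25) were above the limit, and Krt14 (7.15) and Krt4 (6.53, the lowest of the list) were not. Krt20, known from surface cells of the urothelium, was not above it either.

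Hormone and autacoid receptors had a median at percentile 49.1, with 23 of 30 above the limit, and Avpr2 alone was in the brightest 10%. It was followed by the glucocorticoid receptor Nr3c1 (10.08), the prostaglandin receptor Ptger1 (9.67), the natriuretic peptide receptor Npr1 (9.44) and the angiotensin receptor Agtr1b (9.68 and 8.87). Ptger3 stood at 8.84, Ptger4 at 7.62 and Ptger2 at 7.52. The estrogen receptor Esr1 (6.98), Calcr (6.63) and Drd1 (6.56, the lowest) were not above the limit.

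In the prostaglandin system 17 of 21 members were above the limit and the median lay at percentile 48.0. Ptgs1, the constitutive cyclooxygenase, was the brightest at 11.63 and 11.79, ahead of Ptges3 (11.07) and the phospholipase Pla2g4a (10.96). Ptgs2, the inducible cyclooxygenase, differed between the arrays, at 9.47 in replicate 1 and 11.06 in replicate 2 (10.26 ± 1.13, SD, n = 2), and Ptges, the inducible prostaglandin E synthase, at 9.52 and 10.24. Hpgds, which makes prostaglandin D, was at 6.44 and 7.95. The lowest was the prostaglandin F receptor Ptgfr at 6.38.

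The cAMP pathway downstream of the V2 receptor had 21 of 24 members above the limit and a median at percentile 53.2. Gnas, the stimulatory G protein, led at 11.67 with the wide gap between its probe sets given above, followed by the kinase subunit Prkar1a (11.59) and the phosphodiesterase Pde1a (10.80). Among adenylyl cyclases Adcy6 stood at 8.93, Adcy3 at 8.18 and Adcy5 at 7.20, while Adcy1 (6.60) and Adcy8 (6.38, the lowest) were not above the limit. Transcription factors of the duct and nephron had 23 of 27 above the limit and a median at percentile 61.4. Hoxb7, known from the ureteric bud that gives rise to the collecting duct, was the brightest at 11.58 and 11.54, followed by Gata3 and Hoxd10 (10.67). The proximal tubule factor Hnf4a (6.83) and Foxa1 (6.33, the lowest) were not above the limit.

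Energy genes were among the brightest lists. All 35 measured genes of oxidative phosphorylation lay in the brightest 10%, with a median at percentile 98.6, from Atp5mc3 (12.72), Cox6c (12.64) and Ndufa4 (12.59) to Ndufa8 (10.77). All 21 glycolysis genes were above the limit and 10 in the brightest 10%, with a median at percentile 89.3. Ldha, Gapdh and Eno1 (12.54) led, and the platelet, muscle and liver forms of phosphofructokinase, Pfkp (10.60), Pfkm (10.13 and 9.87) and Pfkl (9.35), were measured as well. Ldhb, the subunit that favours use of lactate, was at 10.98 and 11.31. The lowest were Hk2 (7.51) and the glucose transporter Slc2a3 (7.29), whereas Slc2a1 stood at 10.39.

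Gluconeogenesis and fatty acid oxidation had 13 of 16 members above the limit and a median at percentile 68.2. The brightest were the mitochondrial oxidation enzymes Acadm at 11.67, Hadhb at 11.36 and Acaa2 at 11.33, while Cpt2 (9.12) and Cpt1a (9.03), which bring fatty acids into mitochondria, ranked lower. Of the gluconeogenic enzymes Pck2 (9.25), Pc (8.73) and Fbp1 (7.57) were above the limit, and G6pc1 (6.90 and 7.10) and Pck1 (6.89) were not. Neither was the lipid regulator Ppara (6.41, the lowest). Bright genes of the respiratory chain do not measure respiration, and no metabolic reading was part of these data.

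Nearly all measured genes of protein synthesis were bright. Of 42 cytosolic ribosomal protein genes 40 lay in the brightest 10%, with a median at percentile 99.3, from Rps20, Rps3 and Rps4x to Rps27 (10.06). Of 12 translation factors 11 did, with a median at percentile 97.5, led by Eef1a1, Eif4a2 (12.45) and Tpt1 (12.37). The lowest was Eef1a2, the form known from muscle and neurons, at 7.98.

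Of 20 chaperone genes 17 lay in the brightest 10%, with a median at percentile 97.6. Hspa5, the chaperone of the endoplasmic reticulum, led at 12.52 and 12.79, followed by Hspa8 (12.62) and the small heat shock protein Cryab (12.38). Hsph1 differed between the arrays, at 11.11 and 11.98, and Hspb8 was the lowest at 7.38. Of 23 antioxidant and detoxification genes all were above the limit and 14 in the brightest 10%, with a median at percentile 93.0. Below Mt2A stood Txn1 (12.51), Sod1 (12.49) and Gpx1 (12.45). Hmox1, an inducible heme oxygenase and the lowest of the list, was at 7.79 in replicate 1 and 9.16 in replicate 2.

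Cytoskeletal and calcium-binding genes had 16 of 20 members in the brightest 10% and a median at percentile 97.7. S100a10, Actg1 and S100a6 (12.63) led, with S100a11 (12.62), S100a4 (12.53) and Anxa2 (12.41) close behind, and Vil1, villin of the brush border, was the lowest at 7.34. S100a11 has 4 probe sets that ran from 8.79 to 12.62. Secreted proteins ranged more widely, with 24 of 30 above the limit, 11 in the brightest 10% and a median at percentile 71.6. Igfbp7 (12.69), B2m (12.59) and osteopontin, Spp1 (12.38 and 11.58), were the brightest, and the antimicrobial peptide Defb1 stood at 11.55. Havcr1, the marker of proximal tubule injury also called KIM-1, was the lowest at 6.07 and 6.23, and Lcn2, another injury marker, stood at 8.81 and 9.76.

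**Figure D2:**
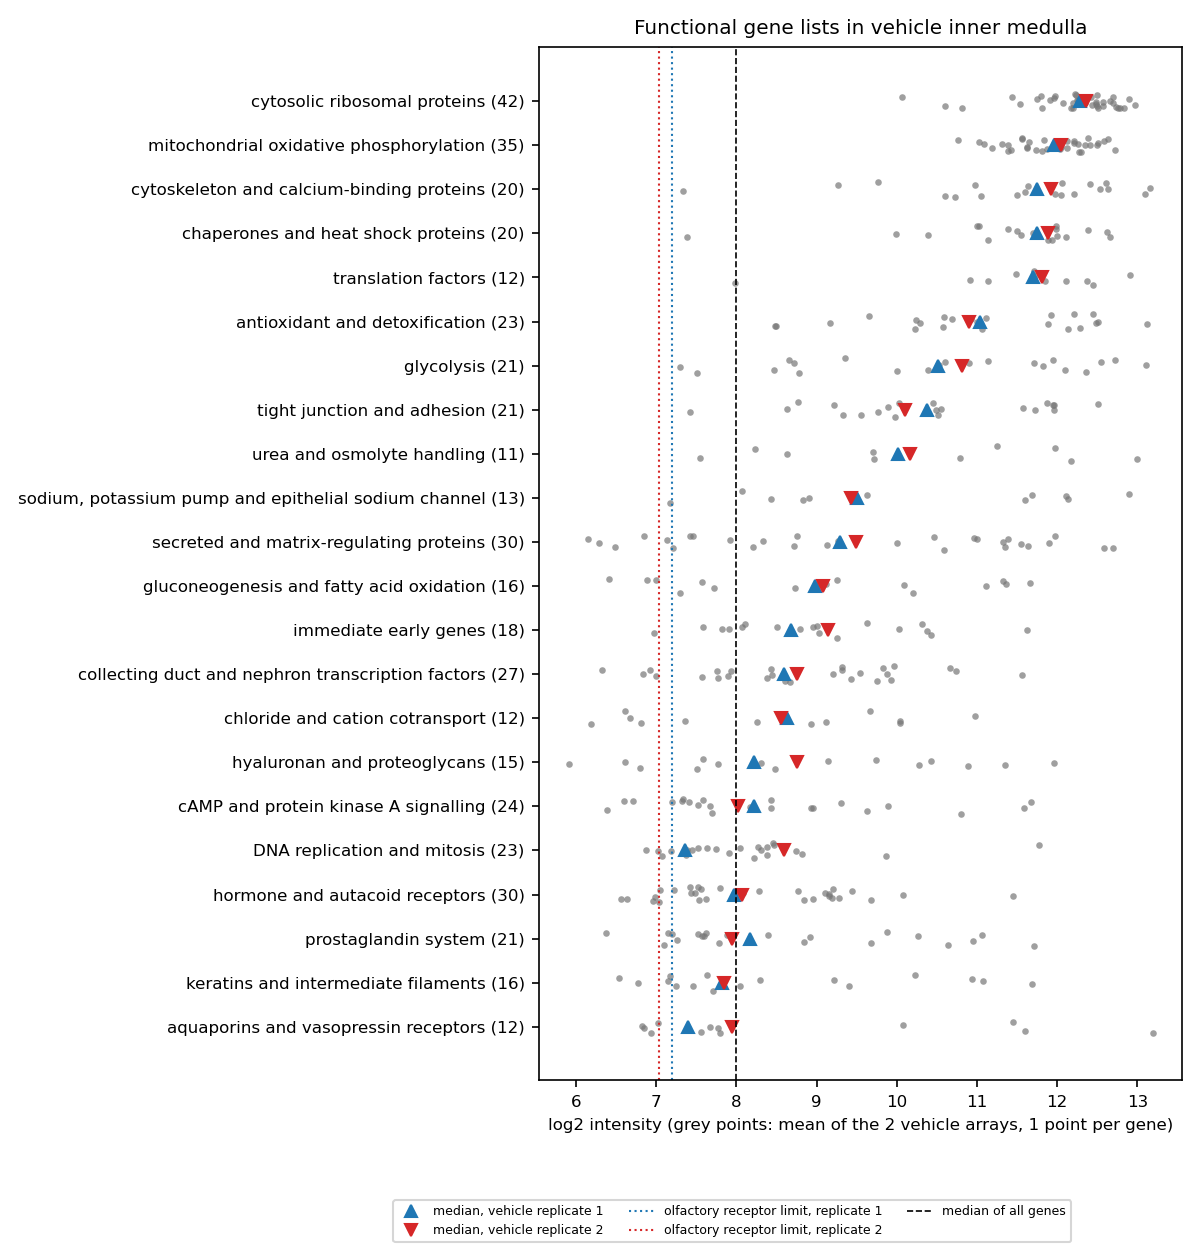
Log2 intensity (horizontal axis) of the measured genes of each functional list (rows, with the number of genes), drawn as in the plot of cell type markers. Ribosomal protein and oxidative phosphorylation genes cluster above 10, whereas receptors, prostaglandin genes and aquaporins spread on both sides of the median of all genes at 7.99, and the 2 arrays' medians lie farthest apart for DNA replication and mitosis.

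At the dim end, beside olfactory and vomeronasal receptors, the 10 lowest named genes were Zfp101 (5.30), Ccdc7b (5.51), Sval1 (5.53), Ly49s4 (5.53), Glra3 (5.56), Stath (5.56), Ly49i3 (5.59), Andpro (5.59), Tas2r13 (5.61) and Prl7b1 (5.61). They include genes known from other tissues: Ly49s4 and Ly49i3 encode natural killer cell receptors, Glra3 a glycine receptor of neurons, Stath the salivary protein statherin, Tas2r13 a bitter taste receptor and Prl7b1 a placental prolactin-like hormone. Their 2 arrays differed by 0.02 to 0.17 log2. Such levels lie in the olfactory receptor range of 5.26 to 8.33 and do not show whether a transcript was present.

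The genes that differed most between the vehicle arrays were named by a rule of size, without a test, since each side is 1 array. Only genes above the limit in at least 1 array were eligible, without unnamed loci, microRNAs and olfactory or vomeronasal receptors. Mamdc2 was 10.78 in replicate 1 and 7.96 in replicate 2, and Spink13, a protease inhibitor, 9.11 and 6.83. Hba-a3, an alpha globin, was 11.64 and 9.57, a gap that its partner Hbb-b1 (12.06 and 11.67) did not match in size. Metallothionein Mt3 (10.22 and 8.23), C1qtnf3 (8.29 and 6.58), the lipoxygenase Alox15b (9.13 and 7.59), the phosphatase Dusp2 (10.66 and 9.15) and Spock2 (8.72 and 7.34) completed the 8 higher in replicate 1.

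Higher in replicate 2 were Mest, by 22.6-fold on the linear scale, Car15, a carbonic anhydrase (6.55 and 10.62), Guca2b, the natriuretic peptide uroguanylin (6.28 and 9.23), the chemokine Ccl7 (8.29 and 10.98), the mitotic cyclin Ccnb1 (7.24 and 9.53), Ptprn (7.13 and 9.43), Gpnmb (9.07 and 11.34) and the mitotic kinase Pbk (6.50 and 8.75).

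**Figure D3:**
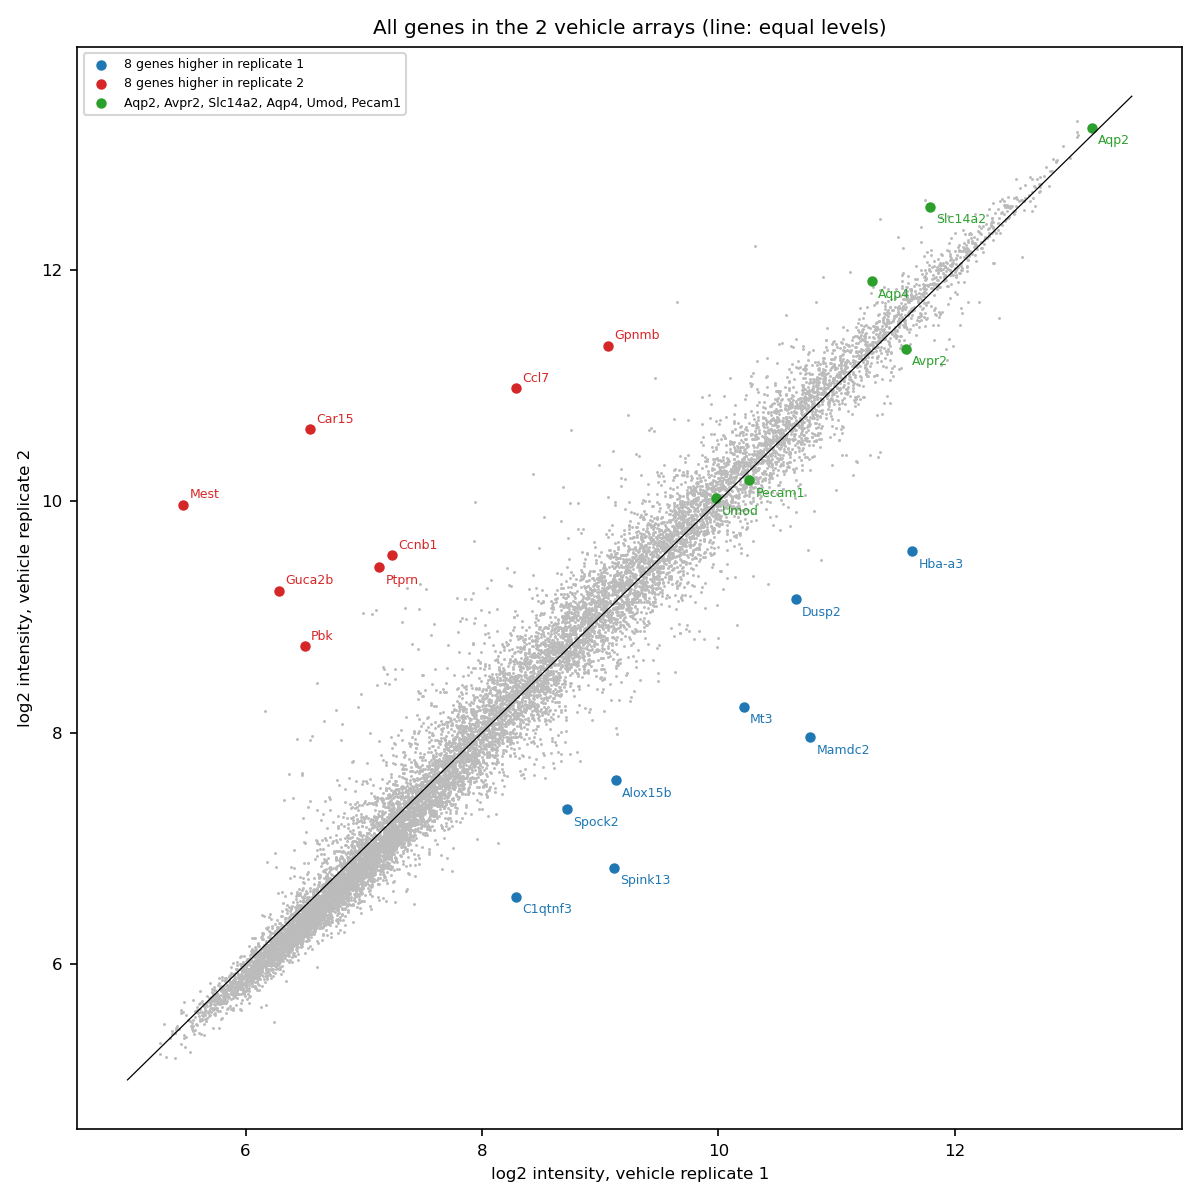
Log2 intensity of all 14168 genes in vehicle replicate 1 (horizontal axis) and replicate 2 (vertical axis), with the line of equal levels. Most genes lie close to the line, the 6 tissue markers are green, and the 8 genes named on each side are blue and red, Mest lying at 5.47 and 9.97. The genes named are those farthest from the line among named genes above the limit in at least 1 array.

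Whole lists moved with this difference between the arrays. All 23 measured genes of DNA replication and mitosis were lower in replicate 1, with a median difference of replicate 1 minus replicate 2 of -0.82 log2 against 0.05 for all genes. The list's median lay at percentile 37.2 in replicate 1 and 59.7 in replicate 2, which makes its joint value of 51.1 a poor summary. Pcna, the sliding clamp of replication, was bright in both (11.61 and 11.94), as was Mcm7 (9.68 and 10.05), and Rrm2 stood at 8.22 and 9.42. The widest gap was that of Ccnb1, given above, followed by Top2a, a topoisomerase, at 7.07 and 9.03, the mitotic kinase Cdk1 at 7.37 and 9.25, the cyclin Ccnb2 at 7.47 and 9.29 and Cdc20 at 7.35 and 9.08. The narrowest was that of Mcm2, a subunit of the replicative helicase, at 8.32 and 8.59. In the list 15 of 23 were above the limit in both arrays, and Bub1b was the lowest (6.33 and 7.42).

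Intercalated cell genes were lower in replicate 1 in 12 of 15 cases (median difference -0.55), and immediate early genes in 15 of 18 (-0.32). The latter, genes that cells switch on within minutes of a stimulus or of handling, had a joint median at percentile 66.8 with 17 of 18 above the limit, led by Ier3 (11.63), Klf6 (10.43) and Dusp1 (10.38), with Egr3 lowest at 6.97. Nr4a1 stood at 7.21 and 8.42, whereas Fos was close in both (8.02 and 8.19). Immune cell genes had a median difference of -0.25, with 9 of 17 lower in replicate 1.

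Endothelial genes went the other way, 14 of 16 being higher in replicate 1 with a median difference of 0.30. Fibroblast and matrix genes were higher there in 11 of 15 (0.18) and pericyte genes in 7 of 11 (0.18). These counts are to be read against 58.0% of all genes higher in replicate 1, and against the lists of other tissues, where 62 of 71 genes were, with a median difference of 0.13. Among those lists liver and neuron genes were higher in replicate 1 in 12 of 12 (0.13 and 0.12), male germ cell genes in 11 of 12 (0.17) and exocrine pancreas genes in 10 of 12 (0.23). The fibroblast and pericyte medians lay within the range of these lists, but the levels were not alike. The median level was 6.75 for the genes of other tissues, 8.85 for the fibroblast list and 8.05 for the pericyte list. The difference between the arrays varied with the level: its median was 0.13 among genes of the second decile from the bottom and -0.08 in the brightest 10%. In the sixth and seventh deciles, where the fibroblast and pericyte medians fall, it was -0.02 and -0.06. After quantile normalization of the 2 arrays the median differences were -0.89 for replication and mitosis, -0.53 for intercalated cell, -0.27 for immediate early, 0.34 for endothelial and 0.27 for fibroblast and matrix genes. What part the cell makeup of the tissue pieces had in these differences was not tested.

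**Figure D4:**
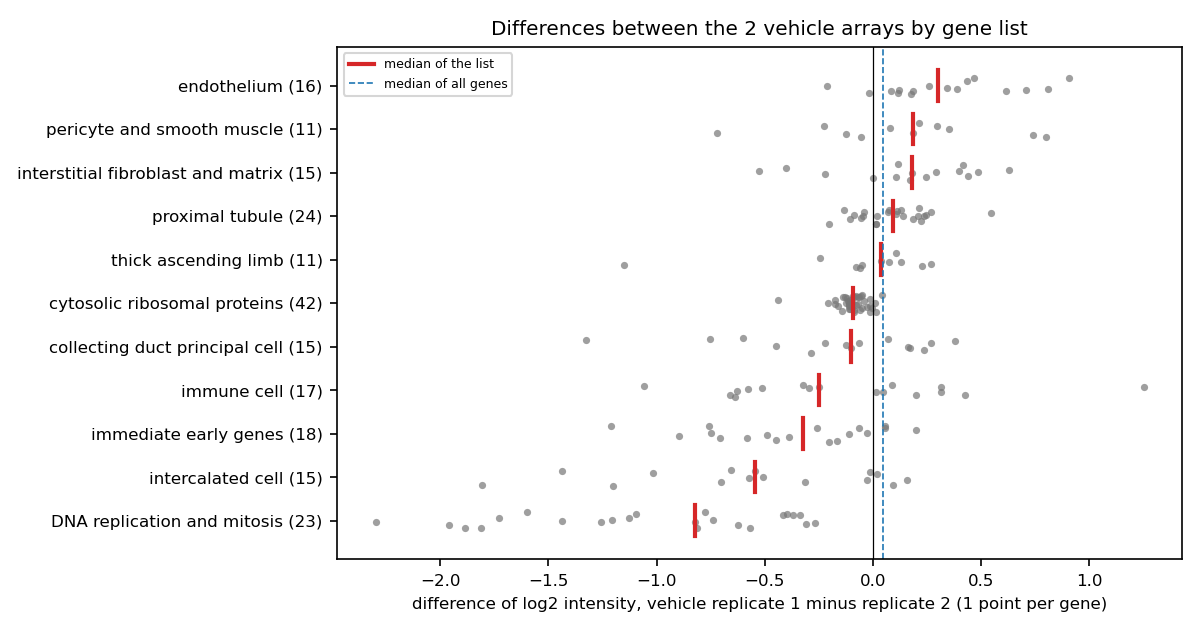
Difference of log2 intensity between vehicle replicate 1 and replicate 2 (horizontal axis, positive where replicate 1 is higher) for each measured gene of 11 lists (rows), with red bars for the list's median and a dashed line for the median of all genes, 0.05. Replication and mitosis genes all lie below 0 with a median of -0.82, and endothelial genes lie mostly above it with a median of 0.30.

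Properties that the ranking did not use ran along the order of levels. Genes were divided into deciles by vehicle level, and 11680 of 14168 had a promoter in RefSeq's GRCr8 table, taken as 250 bases before to 50 bases after the start. Median promoter G+C content was 39.0% in the dimmest 10% and 60.0% in the brightest, and the median number of CpG dinucleotides was 2 and 22. The dimmest 10% holds many receptor genes of the nose, and without olfactory and vomeronasal receptors its median G+C content was 46.7%. From the fifth decile up, the median stayed between 60.0% and 62.0%, so the gradient lay in the dim part of the order.

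The GC box, searched on both strands, was found in 8.62% of promoters in the dimmest 10% and 67.4% in the brightest, against 50.1% of the 11680 promoters of ranked genes and 33.1% of all 33469 promoters in the table. Without olfactory and vomeronasal receptors it was found in 18.1% of the dimmest 10%. CCAAT, also on both strands, was in 41.4% of the dimmest 10% and 39.7% of the brightest. Its share was 38.3% of the promoters of ranked genes and 37.5% of the whole table. Across deciles it ran from 34.2% in the fourth to 43.0% in the ninth. Without olfactory and vomeronasal receptors it was in 38.3% of the dimmest 10%. TGACGTCA, which reads the same on both strands, was in 0.17% of the dimmest 10% (0.35% without these receptors) and 3.83% of the brightest. Its share was 2.48% of the promoters of ranked genes and 1.83% of the whole table. TATAAA in the window given above, on the gene's strand, was found in 3.99% of promoters of the second decile and 0.58% of the ninth. In the brightest 10% it was in 2.38%, which is 28 of 1175 promoters. Its share was 1.96% of the promoters of ranked genes and 1.35% of the whole table. The Mt2A promoter printed above is among the 28. A match is a description of the letters and does not show that a factor binds there.

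Genes of the brightest 10% were also shorter in the genome than those of the middle of the order. Their median length from start to end was 12.6 kb, against 26.0 kb in the sixth decile and 2.81 kb in the dimmest. Olfactory receptor genes are compact (0.94 kb), and without them and the vomeronasal receptors the dimmest 10% had a median of 20.9 kb, close to the middle deciles. The arrays differed least at both ends: the median absolute difference was 0.12 log2 in the dimmest and in the brightest 10% and 0.17 in the seventh decile.

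**Figure D5:**
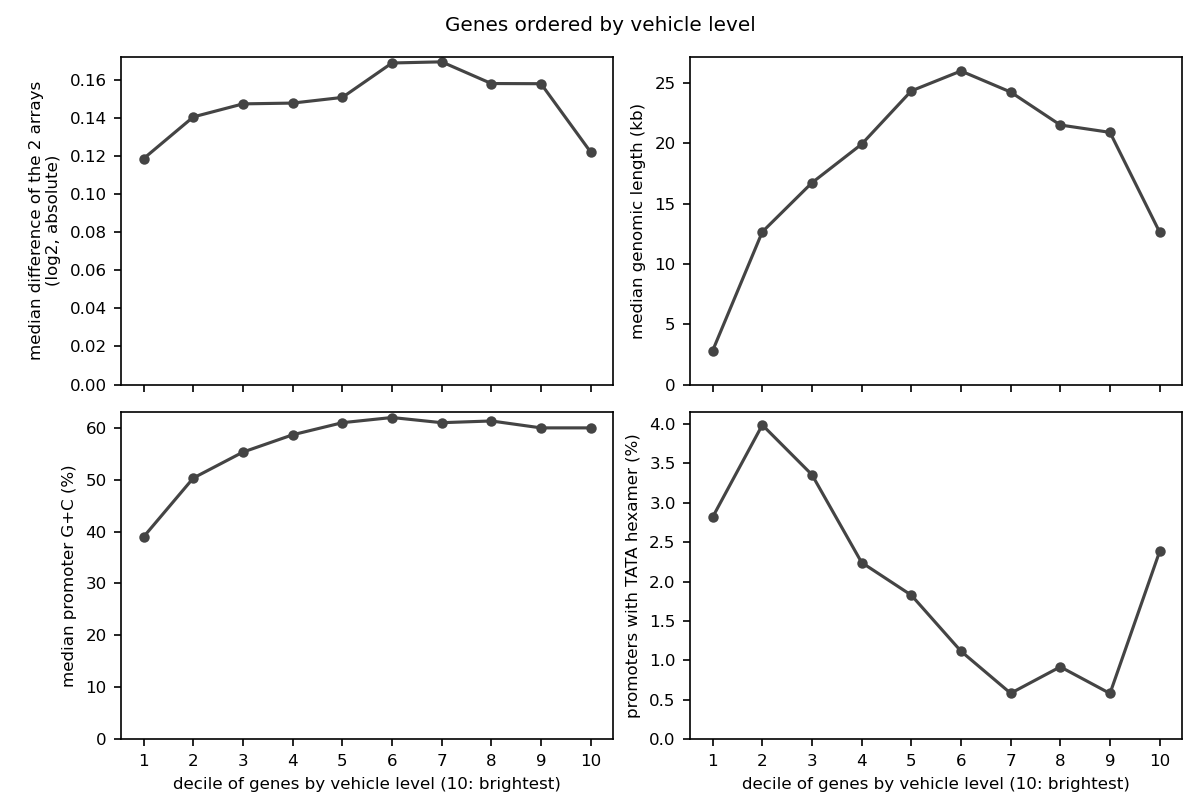
Median absolute log2 difference of the 2 vehicle arrays, median genomic length in kb, median promoter G+C content in percent and percent of promoters with TATAAA in its window (vertical axes), each by decile of genes ordered by vehicle level (horizontal axis, 10 being the brightest). Array difference and length peak in the middle deciles (the short dimmest decile is at 20.9 kb without olfactory and vomeronasal receptors), G+C content levels off from the fifth, and TATAAA is least common in the seventh and ninth.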

How the data were processed

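Total RNA (300 ng per sample, Trizol) was labelled by whole-transcript sense target labelling and hybridised to Affymetrix gene arrays, per the labels' protocols. Per the submitters' processing notes the authors used RMA. They deposited 1 intensity per probe set and array on a linear scale, although RMA usually gives log2 values. The version and assembly were not given in the sources used here. RMA equalises probe distributions between arrays, which reduces differences shared by most genes. Vehicle intensities ran from 30.6 to 9975, with medians of 182 and 175.

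Here log2 was taken. Of 28524 probe sets, 14947 had exactly 1 gene symbol in the platform annotation, 318 had several and 13259 were not listed there. The Entrez numbers of 14916 were found in RefSeq's GRCr8 gene table, which changed 0 symbols. Each gene was represented by its probe set of highest mean in all 6 arrays. No test was applied, and no gene was left out of the ranking for its level: 2 arrays of 1 group were described, with means ± SD. Olfactory receptor genes had symbols starting with Or or Olr and a digit. No detection call or scan date was used, so no batch could be examined.

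Genes named are the 25 brightest and 10 dimmest (without microRNAs, loci that have no name, and receptors of the olfactory and vomeronasal families), 6 tissue markers, members of 42 gene lists from textbook knowledge, at least the 3 highest and the lowest of each, and 8 genes per direction that differed most between the arrays. Those per direction were taken, with the same exclusions, from genes above the limit in at least 1 array. Members and lists were chosen with earlier results of these data known. Alternatives changed the normalization, the scale of the mean, the probe set per gene, the limit and the arrays. The percentile and limit steps were tested on simulated data. Python 3.11.15, numpy 2.4.6, pandas 2.3.3 and matplotlib 3.10.9 were used.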

Additional observations from a re-analysis of the deposited data

How the results depend on the processing

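The number of genes above the olfactory receptor limit in both arrays, 9407, was 7333 with the limit at the 99th percentile of these genes, 10641 with a limit from vomeronasal receptors and 8822 with a limit from symbols starting with Olr alone, an alternative added after the data were seen. With either array left out it was 9557 to 9787, and all alternatives tried stayed within 1.5 times the value. The median percentile of 8 lists of cell types shifted by at most 1.34 points under 5 settings of normalization, scale and probe set. Each measured member of these 8 lists has 1 probe set, so the probe set settings could not change its level. They changed only the other genes in the ranking, so small shifts under them were given by construction. In 39 of these 40 cases the shift was smaller than the SD between the arrays, the exception being fibroblast and matrix genes at 65.7 when genes with 1 probe set alone were used. With an array left out the ranges were 79.5 to 87.1 for principal cell, 49.3 to 65.6 for intercalated cell, 87.0 to 89.4 for thin limb, 66.4 to 71.8 for thick ascending limb, 31.5 to 33.5 for proximal tubule, 38.3 to 40.9 for podocyte, 70.3 to 82.0 for endothelium and 64.0 to 64.9 for fibroblast and matrix genes. The median difference between the arrays kept its sign after quantile normalization, added after the data were seen, in the 7 lists tried. No paired analysis was possible because no groups were compared and no test was made. With 2 arrays and no detection calls, background was judged from genes of other tissues, the limit being set by the olfactory receptors.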
